A study of Homo sapiens with 10 samples.

Results

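The cystine transporter gene SLC7A11 was placed among 9 other plasma membrane amino acid transporter genes in RNA-seq libraries of a cisplatin-sensitive and a cisplatin-resistant bladder cancer line. The 10 genes, SLC7A11, SLC3A2, SLC7A5, SLC7A6, SLC7A1, SLC1A3, SLC1A4, SLC1A5, SLC38A1 and SLC38A2, were taken by name from a list. That list was chosen with earlier results of these data known. All 10 genes were found among the 61533 genes of the tables. T24 is a human bladder cancer cell line, and T24R2 is its derivative obtained by serial desensitization to cisplatin, so each group is 1 cell line. Each line has 5 libraries from day 3 of culture. The labels list the same medium, RPMI with serum and antibiotics, for both lines, whereas the methods of the study keep T24R2 in cisplatin. Whether the sequenced T24R2 cells were in the drug is not settled, so the line and the drug cannot be told apart. Nothing states that the 5 libraries of a line came from separate cultures, so p-values measure only the spread between these libraries, which may be technical.

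Most amino acids enter a cell through carriers that exchange one amino acid for another or follow sodium into the cell. SLC7A11 (xCT) brings in cystine, the oxidized form of cysteine, in exchange for glutamate, and the cysteine made from it feeds the synthesis of glutathione, the main thiol antioxidant of the cell. SLC7A11, SLC7A5 and SLC7A6 are light chains, which carry the amino acids but reach the plasma membrane only when joined to a heavy chain, SLC3A2 (4F2hc or CD98). Other carriers supply related substrates, and some share regulation by ATF4, the transcription factor of the amino acid response, and by NRF2 (NFE2L2), the transcription factor of the antioxidant response.

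Total counts per library ranged from 9257843 to 10840954. Levels are given as CPM, counts relative to a common library size after scaling by the TMM method, and a gene is called changed at an adjusted p under 0.05 in edgeR's quasi-likelihood test and an absolute log2 fold change over 0.5. By this rule 51.4% of the 16181 genes tested were called, 24.9% higher and 26.5% lower in T24R2, so a call is common between these lines. The urothelial cytokeratins KRT7, KRT8 and KRT18 were abundant in both lines, for example KRT7 at 2167 to 2355 CPM in T24 and 1301 to 1468 CPM in T24R2. All 9 of the 16 urothelial markers that could be tested were lower in T24R2, and KRT20 had no count in any library. Other markers differed far more than these cytokeratins. KRT19 went from 267 to 0.0887 CPM, GATA3 from 22.1 to 0.214 CPM and FOXA1 from 66.7 to 13.8 CPM. The summed level of the urothelial list was 5010 to 5744 CPM in T24 and 3028 to 3232 CPM in T24R2. Of 11 markers of other cell types, 4 could be tested and all 4 were lower in T24R2, with a summed level of 238 to 289 CPM in T24, nearly all from the endothelial cadherin CDH5, and 2.41 to 6.43 CPM in T24R2. The leukocyte markers PTPRC and CD3E and the fibroblast markers DCN and COL1A2 were near 0 in both lines. The fibroblast markers COL1A1 and PDGFRB were at 6.45 and 3.43 CPM in T24 and at 1.03 and 0 CPM in T24R2. The part of these marker differences in the transporter values was not tested. In bulk RNA, a different share of cells and a different level per cell cannot be told apart.

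Of the 10 transporters, 9 passed the filter on low counts, and SLC1A3 did not. Of these 9, 4 were called higher in T24R2 (SLC7A11, SLC3A2, SLC1A4 and SLC7A5) and 0 were called lower, beside 24.9% and 26.5% of all genes tested. By adjusted p alone, 8 of the 9 passed, against 75.5% of all genes tested. Of these, 7 were higher, against 37.9% of all, and 1, SLC38A2, was lower with a sign that turned without TMM scaling. In 6 of the 9 tested members, every T24R2 library lay above every T24 library, and in 0 of the 9 did every T24R2 library lie below. The first pattern was held by 29.9% of all genes tested (61.2% in either direction). SLC1A3, which was not tested, also had every T24R2 library above every T24 library. The median log2 fold change of the 9 was 0.31, and that of all genes tested was 0.01. These counts describe a short list of chosen genes and mark nothing as particular to it.

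**Figure D1:**
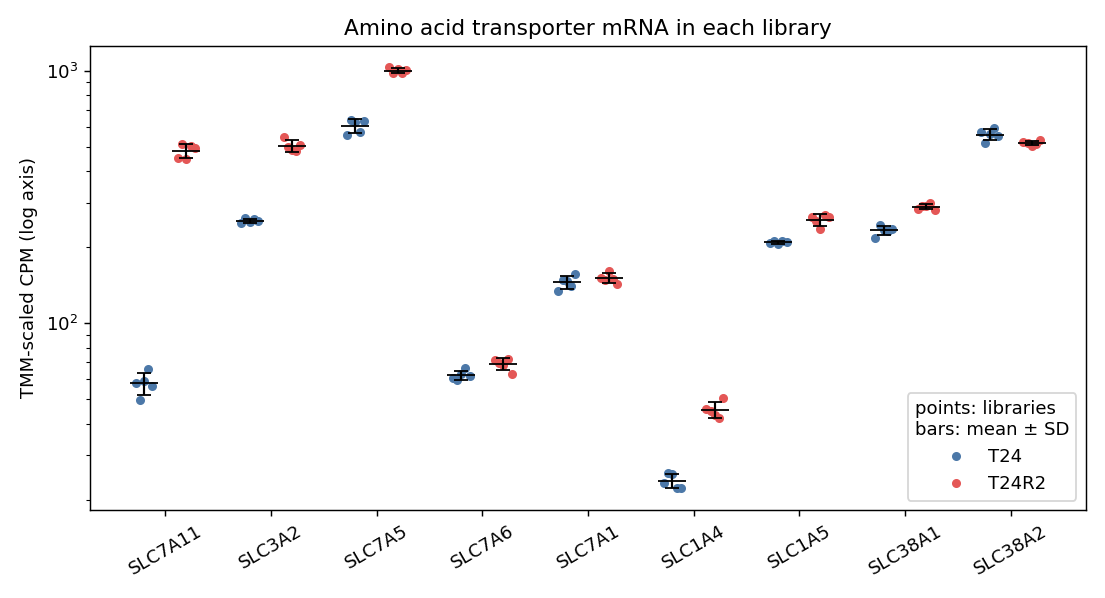
Level of the 9 tested transporters in each library, in TMM-scaled CPM on a log axis; points are the 5 libraries of T24 (blue) and of T24R2 (red), and bars give the mean ± SD. SLC7A11, SLC3A2, SLC7A5, SLC1A4, SLC1A5 and SLC38A1 have the T24R2 points above all T24 points, while the points of SLC7A6, SLC7A1 and SLC38A2 overlap. SLC1A3 is left out because 1 T24 library holds 0 counts.

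The regulatory letters upstream of these genes are shown first, because ATF4 and NRF2 are the regulators the family is best known for. The core of the ATF4 response element, TGATGNAA, and the core of the antioxidant response element, TGACNNNGC, were searched on both strands in the RefSeq promoter windows of GRCh38.p14, which run from 250 bases before to 50 bases after an annotated start. Windows were present for 9 of the 10 members, and SLC7A11 has no entry. The ATF4 core was found in 6 of these 9 members and in 4.46% of all genes with a window. Counted by window, it was in 6 of 17 member windows (35.3%) and in 3.62% of 35116 windows. The antioxidant core was also found in 6 of the 9 members, against 16.1% of all genes with a window, and in 35.3% of member windows against 13.3% of all. On the same strand, no stretch can match both motifs from the same base. The heavy chain gene SLC3A2 holds both within 1 window. The 250 bases before its start at chr11:62881449-62881698 on the plus strand are shown with the antioxidant core in capitals, which begins 37 bases before the start, and its ATF4 core begins 37 bases after the start, on the minus strand.
SLC3A2: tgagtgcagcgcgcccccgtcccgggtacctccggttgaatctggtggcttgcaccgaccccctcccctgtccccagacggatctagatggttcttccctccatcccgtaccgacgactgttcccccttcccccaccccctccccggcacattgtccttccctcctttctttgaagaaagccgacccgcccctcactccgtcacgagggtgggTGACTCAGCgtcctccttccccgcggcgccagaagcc

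Short stretches of 30 bases around the match are given for 2 members that were called higher and 2 that were not, each on the strand of its gene with the match in capitals. They are SLC1A4 (chr2:64989382-64989411, plus strand, ATF4 core read from the other strand), SLC7A5 (chr16:87869490-87869519, minus strand, antioxidant core), SLC38A1 (chr12:46266501-46266530, minus strand, ATF4 core) and SLC7A1 (chr13:29595662-29595691, minus strand, ATF4 core).
SLC1A4: cggctcccgtTTGCATCAtctccagccggc
SLC7A5: gcggggttccTGACGCAGCtgcgggcggcg
SLC38A1: cagacccgaaTGATGAAAagggatcagcta
SLC7A1: ggcgcactgcTGATGAAAcctggcgccgga
SLC7A1, whose level overlapped between the lines, also holds the antioxidant core, and SLC38A2 holds neither in its window. A match is a description of letters near an annotated start and was not tested for binding.

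SLC7A11 (ENSG00000151012.13, chromosome 4, 138164097 to 138242349 on the minus strand of hg38) showed the largest rise of the 9 tested members. Its levels in T24 libraries 1 to 5 were 58.1, 49.5, 59.1, 65.7 and 56.6 CPM. In T24R2 libraries 1 to 5 they were 449.0, 513.9, 445.4, 501.6 and 493.6 CPM. The lowest T24R2 library was far above the highest T24 library. The mean went from 57.8 ± 5.79 to 481 ± 31.4 CPM (SD, n = 5), 8.32-fold, with a log2 fold change of 3.06 (SE 0.06, adjusted p = 3.7e-35 by edgeR). Among all genes tested, 320 rose more and 98.0% had a smaller log2 fold change. The antisense gene SLC7A11-AS1 shares 8.97% of the exon bases of SLC7A11, and without every one of its counts the log2 fold change was 3.03.

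SLC3A2 (ENSG00000168003.18, chromosome 11, 62856004 to 62888880, plus strand), the heavy chain that SLC7A11 needs at the plasma membrane, rose as well, by a smaller factor. In T24 libraries 1 to 5, SLC3A2 stood at 248.5, 260.7, 252.5, 258.6 and 252.9 CPM. In T24R2 the values were 546.9, 499.7, 486.5, 480.2 and 505.6 CPM. The lines were apart in every library. The mean went from 255 ± 4.93 to 504 ± 26.2 CPM (SD, n = 5), 1.98-fold, with a log2 fold change of 0.98 (SE 0.04, adjusted p = 1.1e-22 by edgeR). No gene on the opposite strand shares exon bases with SLC3A2, and 1970 tested genes rose more.

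SLC7A5 (ENSG00000103257.9, chromosome 16, 87830023 to 87869507, minus strand), the LAT1 light chain that takes up leucine and other large neutral amino acids, was the most abundant member in both lines per exon length. Across T24 libraries 1 to 5 it was at 554.8, 639.6, 627.3, 569.2 and 631.3 CPM. For T24R2, libraries 1 to 5 held 1034.1, 976.8, 1018.2, 975.2 and 1002.2 CPM. All T24R2 libraries lay above all T24 libraries. The mean went from 604 ± 39.3 to 1001 ± 25.7 CPM (SD, n = 5), 1.66-fold, with a log2 fold change of 0.73 (SE 0.04, adjusted p = 2.3e-18 by edgeR). The opposite-strand gene ENSG00000260466 shares 5.69% of its exon bases, and without the counts of that gene the log2 fold change was 0.70. The pseudogene copies SLC7A5P1 and SLC7A5P2 held 0 counts in both lines, and since the authors kept uniquely mapped reads, reads shared by these copies and SLC7A5 would not be counted.

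SLC7A6 (ENSG00000103064.15, chromosome 16, 68264516 to 68301823, plus strand), the y+LAT2 light chain, which exchanges cationic for neutral amino acids, differed little. For T24, the libraries in order of number held 60.7, 59.5, 63.1, 66.3 and 61.6 CPM. The T24R2 libraries, in the same order, held 71.2, 69.4, 68.6, 72.3 and 62.7 CPM, and the ranges overlapped. The mean was 62.2 ± 2.59 CPM in T24 and 68.9 ± 3.72 CPM in T24R2 (SD, n = 5), a log2 fold change of 0.15 (SE 0.06, adjusted p = 0.0202 by edgeR), under the fold change minimum. The adjusted p was 0.0508 without T24 library 1, 0.0575 without T24 library 2 and 0.0508 without T24R2 library 4. SLC7A6 shares 55.6% of its exon bases with genes on the opposite strand, mainly SLC7A6OS with a mean of 528 counts in T24 and 542 in T24R2. Because the library kit is not described as marking strand in the sources, the reads of SLC7A6 and SLC7A6OS cannot be told apart.

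How the light chains stand to their shared heavy chain was measured within each library, where library scaling cancels, as the ratio of counts per kilobase of exon. SLC7A11 over SLC3A2 was 0.151 ± 0.0156 in T24 and 0.634 ± 0.0605 in T24R2 (SD, n = 5), a difference of 2.08 in the mean log2 ratio. The length was that of all annotated exon bases of a gene, so the level of a ratio depends on it. The mean log2 of SLC7A11 over SLC3A2 was -2.74 in T24 and -0.66 in T24R2. Without division by length it was -2.14 and -0.07, with the same difference of 2.08. SLC7A5 over SLC3A2 was 3.18 ± 0.193 and 2.67 ± 0.103, a log2 difference of -0.25. SLC7A6 over SLC3A2 was 0.206 ± 0.00869 and 0.115 ± 0.00863, a log2 difference of -0.84. Because reads of SLC7A6 and SLC7A6OS cannot be told apart, this last ratio and its p-value may not describe SLC7A6 alone. In all 3 ratios the lines did not overlap, with T24R2 above T24 for SLC7A11 and below it for the other two. Each gave p = 0.00794 in an exact two-sided permutation test (n = 5 per line), 0.00794 after adjustment over the 3 ratios, and this is the smallest p that 5 against 5 libraries can give. SLC7A11 thus gained on SLC3A2, while SLC7A5, which rose in CPM, did so by less than SLC3A2.

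The light chains that pair with SLC3A2 and were looked at here were SLC7A11, SLC7A5, SLC7A6, SLC7A7 and SLC7A8, and their levels per kilobase were added to give each one's share. SLC7A11 made up 4.26% ± 0.594 of this pool in T24 and 18.5% ± 1.33 in T24R2 (SD, n = 5, p = 0.00794, exact two-sided permutation test). In T24 its share ran from 3.48% to 5.04% and in T24R2 from 17.0% to 19.9%, so the lines were apart. Without division by length its mean share was 7.99% in T24 and 31.0% in T24R2. SLC7A5 remained the major light chain, with 89.7% ± 1.02 in T24 and 78.1% ± 1.37 in T24R2. SLC7A6 had 5.82% ± 0.463 and 3.37% ± 0.190, which may include reads of SLC7A6OS. SLC7A7 and SLC7A8 were nearly silent, with at most 0.168% of the pool on average in either line. The 5 light chains summed were 3.55 ± 0.181 times the level of SLC3A2 in T24 and 3.42 ± 0.142 times in T24R2, and here the ranges overlapped (3.34 to 3.71 and 3.19 to 3.55). The size of this multiple depends on the exon lengths used. These are ratios of mRNA, since protein was not measured in these files.

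**Figure D2:**
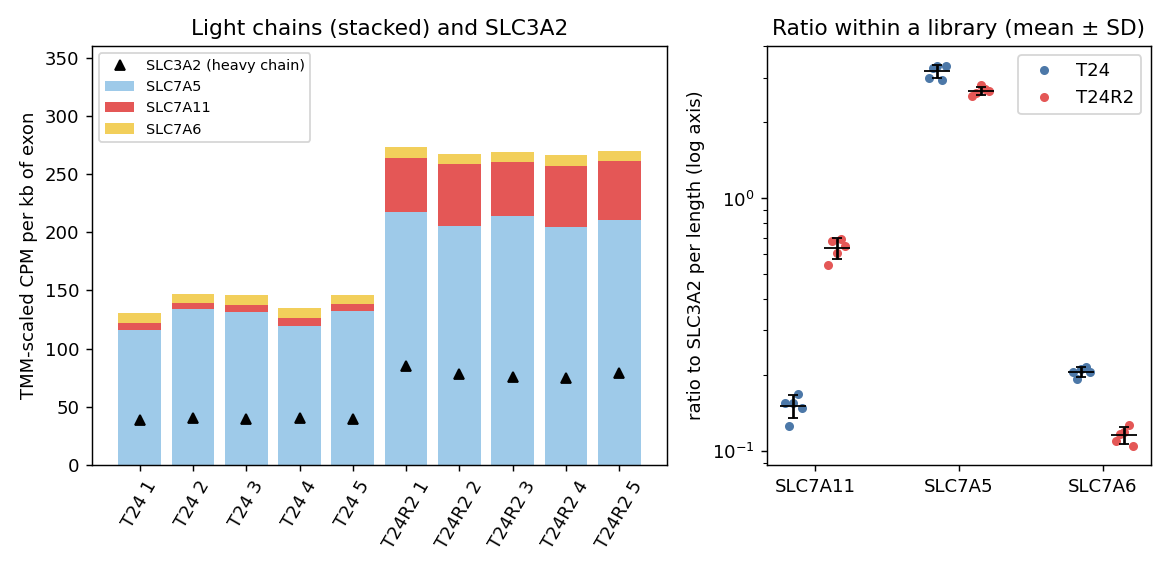
Left, SLC7A5, SLC7A11 and SLC7A6 stacked in each library with SLC3A2 as triangles, in TMM-scaled CPM per kilobase of exon; right, the ratio of each light chain to SLC3A2 within a library on a log axis, points being libraries and bars the mean ± SD (n = 5). SLC7A11 over SLC3A2 lies at 0.126 to 0.168 in T24 and 0.544 to 0.692 in T24R2, while SLC7A5 keeps the largest part of every stack.

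SLC7A1 (ENSG00000139514.13, chromosome 13, 29509414 to 29595688, minus strand), the cationic amino acid transporter CAT1 for arginine and lysine, was not called. In T24 libraries 1 to 5, SLC7A1 stood at 134.1, 148.8, 147.3, 140.0 and 156.9 CPM. In T24R2 the values were 151.6, 148.2, 161.4, 149.8 and 143.3 CPM, within or close to the T24 range. The mean was 145 ± 8.72 and 151 ± 6.67 CPM (SD, n = 5), a log2 fold change of 0.05 (SE 0.05, adjusted p = 0.326 by edgeR; p = 0.302 in an exact two-sided permutation test). Without TMM scaling the SLC7A1 mean was 16.1% higher in T24R2 (p = 0.00794, exact permutation test), so its call by that test rests on the scaling.

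SLC7A2, the related carrier CAT2 and not among the 10, is given beside SLC7A1 because it transports the same cationic amino acids. It went from 224 ± 21.4 to 10.2 ± 0.992 CPM (SD, n = 5), a log2 fold change of -4.45 (adjusted p = 3.5e-37 by edgeR). Per kilobase, SLC7A2 stood at 28.3 ± 2.71 in T24, above SLC7A1 at 18.9 ± 1.13, and at 1.29 ± 0.126 in T24R2, below SLC7A1 at 19.6 ± 0.867. SLC7A2 thus held 59.8% ± 3.04 of the summed level of both in T24 and 6.16% ± 0.706 in T24R2. The sum of both carriers per kilobase was 47.2 ± 2.51 in T24 and 20.9 ± 0.812 in T24R2.

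SLC1A4 (ENSG00000115902.11, chromosome 2, 64988477 to 65023865, plus strand), the ASCT1 exchanger of alanine, serine, cysteine and threonine, rose by nearly the same factor as SLC3A2 from a much lower level. Across T24 libraries 1 to 5 it was at 23.2, 25.5, 25.4, 22.3 and 22.4 CPM. For T24R2, libraries 1 to 5 held 45.6, 44.8, 43.5, 42.2 and 50.7 CPM, all above T24. The mean went from 23.7 ± 1.58 to 45.4 ± 3.26 CPM (SD, n = 5), 1.91-fold, with a log2 fold change of 0.93 (SE 0.08, adjusted p = 3.8e-14 by edgeR). No opposite-strand gene shares its exon bases.

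SLC1A5 (ENSG00000105281.12, chromosome 19, 46774883 to 46788594, minus strand), the ASCT2 exchanger of glutamine and other neutral amino acids, was apart between the lines by a small amount. For T24, the libraries in order of number held 208.4, 212.1, 205.6, 211.8 and 209.9 CPM. The T24R2 libraries, in the same order, held 263.7, 253.8, 235.1, 267.8 and 262.6 CPM, with the third library lowest but still above T24. The mean was 210 ± 2.68 and 257 ± 13.1 CPM (SD, n = 5), 1.22-fold, with a log2 fold change of 0.29 (SE 0.04, adjusted p = 1.8e-07 by edgeR), under the fold change minimum. The opposite-strand gene ENSG00000275719 shares 23.4% of the exon bases of SLC1A5.

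SLC1A3 (ENSG00000079215.15, chromosome 5, 36596588 to 36688334, plus strand), the glutamate and aspartate transporter EAAT1, was close to silent. In T24 libraries 1 to 5, SLC1A3 stood at 0, 4, 2, 3 and 1 counts. In T24R2 the values were 9, 13, 17, 7 and 9 counts, each above the T24 libraries. The sums were 10 and 55 counts, a ratio scaled to library size of 4.71 with a 95% exact interval of 2.38 to 10.4 that covers counting error only. In CPM the means were 0.216 and 1.02 (p = 0.00794, exact two-sided permutation test, n = 5 per line). SLC1A3 entered the edgeR test only when no count filter was used, and its log2 fold change there was 2.17 (adjusted p = 0.000744).

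The SLC38 carriers take up glutamine, alanine and other small neutral amino acids with sodium. SLC38A1 (ENSG00000111371.16, chromosome 12, 46183063 to 46270017, minus strand), also named SNAT1, held 216.8, 245.6, 234.9, 232.0 and 235.5 CPM in T24 libraries 1 to 5. For T24R2, libraries 1 to 5 held 283.9, 290.9, 291.5, 299.3 and 280.9 CPM, all above T24. The mean was 233 ± 10.4 and 289 ± 7.18 CPM (SD, n = 5), 1.24-fold, with a log2 fold change of 0.31 (SE 0.04, adjusted p = 3.3e-08 by edgeR), under the fold change minimum.

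SLC38A2 (ENSG00000134294.14, chromosome 12, 46358188 to 46372773, minus strand), or SNAT2, the carrier best known for its induction by amino acid shortage, lies on the same chromosome as SLC38A1 and differed little. Across T24 libraries 1 to 5 it was at 569.7, 518.8, 562.9, 593.5 and 549.3 CPM. The T24R2 libraries, in the same order, held 520.9, 516.0, 504.2, 511.5 and 533.9 CPM, and the ranges overlapped. The mean was 559 ± 27.5 and 517 ± 11.2 CPM (SD, n = 5), a log2 fold change of -0.11 (SE 0.04, adjusted p = 0.0152 by edgeR), under the fold change minimum. The sign turned to 0.052 without TMM scaling, so no direction is given for SLC38A2.

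**Figure D3:**
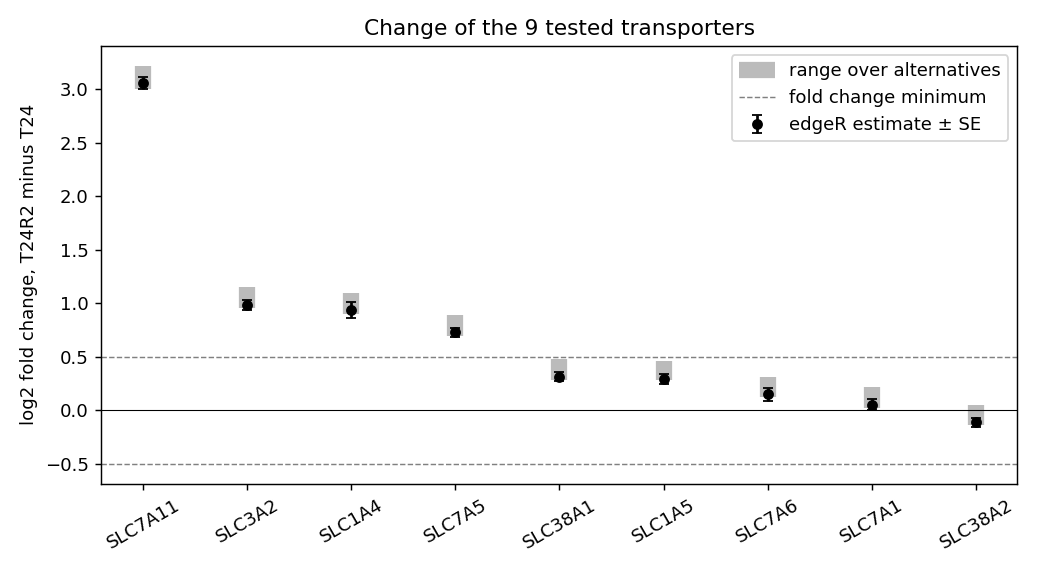
Log2 fold change of the 9 tested transporters, T24R2 minus T24, with the edgeR estimate ± SE in black and the range over the alternative settings in grey; dashed lines mark the fold change minimum of 0.5. SLC7A11 stands at 3.06, followed by SLC3A2 at 0.98, SLC1A4 at 0.93 and SLC7A5 at 0.73, and only the grey bar of SLC38A2 crosses 0.

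Levels between genes were compared as CPM per kilobase of exon. The length counts all annotated exon bases of a gene, not those of the transcripts in use, so the order depends on it. The value of SLC7A6 may include reads of SLC7A6OS. In T24 the order was SLC7A5 (127), SLC38A2 (85.9), SLC1A5 (62.9), SLC3A2 (39.8), SLC38A1 (23.3), SLC7A1 (18.9), SLC7A6 (8.20), SLC7A11 (5.99), SLC1A4 (3.42) and SLC1A3. No neighbours in this order overlapped over the 5 libraries. SLC7A11 was 8th of 10 in T24 and 5th in T24R2, at 49.8 CPM per kilobase, where it passed SLC38A1 (28.9), SLC7A1 (19.6) and SLC7A6 (9.07). In T24R2, SLC7A5 stayed first at 210, and SLC38A2 (79.5), SLC3A2 (78.8) and SLC1A5 (77.0) overlapped in their ranges, so their order is not set. SLC1A4 (6.54) and SLC1A3 remained last. Although SLC7A11 and SLC3A2 had similar CPM in T24R2, SLC7A11 has 9645 exon bases and SLC3A2 has 6392, so SLC7A11 was the lower per length.

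**Figure D4:**
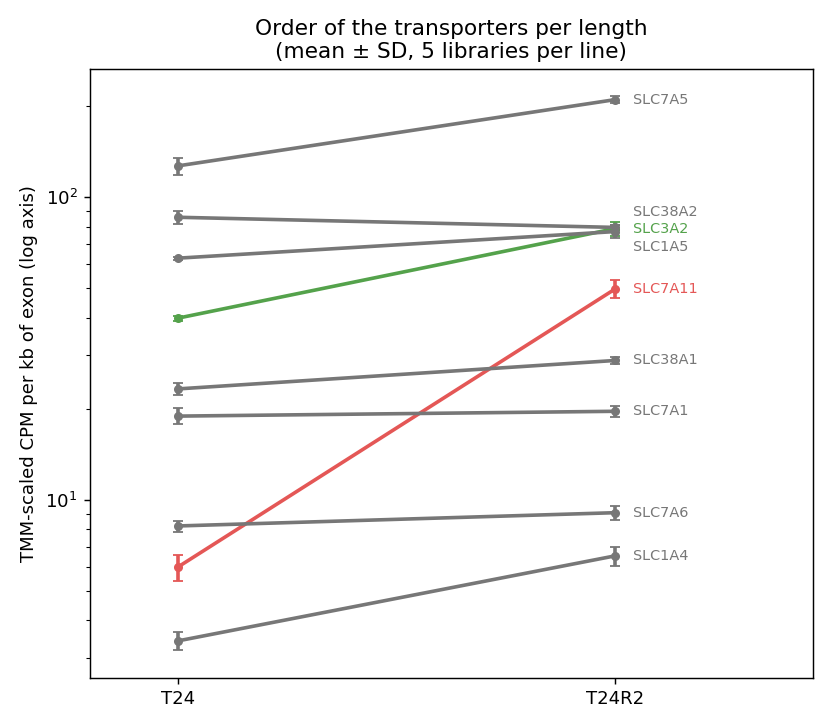
Mean TMM-scaled CPM per kilobase of exon of the 9 tested transporters in T24 and T24R2 on a log axis, with SD bars (n = 5); lines join the same gene. SLC7A11 (red) goes from 5.99 to 49.8 and crosses 3 genes, and SLC3A2 (green) goes from 39.8 to 78.8 and meets SLC38A2 and SLC1A5.

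The genes whose course over the 10 libraries was most like that of SLC7A11 were found by the root mean square difference of centred log2 CPM among the 10610 genes whose mean level reached 10 CPM. They were ALDH3A2 (0.113), a fatty aldehyde dehydrogenase, VIM (0.151), an intermediate filament gene, TTC30A (0.162), CEACAM19 (0.176) and ENSG00000234961 (0.177), each on the log2 scale. Their log2 fold changes ran from 2.83 for TTC30A to 3.09 for ENSG00000234961. That of SLC7A11 was 3.06, so the measure mainly picks genes with a line difference of like size. A shared course among the libraries of a line was not tested.

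Beyond the 10 members, 43 further amino acid transporters were looked up. Of these, 18 could be tested. Another 18 were at 3 counts or fewer in every library, including the 11 that had no count in any library. The rest exceeded 3 counts in some library but did not pass the filter on low counts. Among the 18 tested, 9 were called higher, 5 lower and 4 were not called, so 77.8% were called against 51.4% of all genes tested. Their median log2 fold change was 0.50 against 0.01 for all genes. Without TMM scaling the split was 11 higher and 3 lower.

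The largest fall among these transporters was that of SLC7A2, described beside SLC7A1. SLC43A1 (LAT3), which carries large neutral amino acids without a heavy chain, fell from 31.5 ± 2.16 to 12.2 ± 1.77 CPM (log2 fold change -1.37, adjusted p = 6.8e-16 by edgeR). SLC6A17, a neutral amino acid carrier of synaptic vesicles, was at the floor of 3 counts in T24 and at least 19.2-fold higher in T24R2, where it reached 6.21 ± 1.76 CPM. SLC16A10, the aromatic amino acid carrier TAT1, was low in both lines and rose from 0.301 ± 0.0856 to 2.52 ± 0.360 CPM (log2 fold change 3.01, adjusted p = 1.9e-09).

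Of the 9 further SLC38 genes, 4 were tested, with 3 called higher (SLC38A6, SLC38A7 and SLC38A9) and SLC38A10 lower. SLC38A6 rose from 9.78 ± 1.26 to 26.2 ± 0.919 CPM (log2 fold change 1.42, adjusted p = 9.3e-16 by edgeR). SLC38A9, the lysosomal arginine sensor of the mTORC1 pathway, rose from 12.3 ± 1.38 to 24.6 ± 1.94 CPM (log2 fold change 1.00, adjusted p = 1.3e-11). The taurine transporter SLC6A6 rose from 57.8 ± 5.05 to 128 ± 1.68 CPM (log2 fold change 1.14, adjusted p = 2.7e-21).

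Other routes for cystine were also measured. SLC3A1, the heavy chain of the renal cystine transporter, rose from 12.5 ± 1.29 to 22.0 ± 2.53 CPM (log2 fold change 0.82, adjusted p = 6.2e-09 by edgeR). Of its exon bases, 29.4% are shared with PREPL on the opposite strand. PREPL held a mean of 519 counts in T24 and 927 in T24R2, against 116 and 238 for SLC3A1. Reads in the shared bases cannot be told apart, so this rise may not describe SLC3A1 alone. The light chain gene SLC7A9 could not be tested, with 0 counts in every T24 library and at most 7 in a T24R2 library. Whether SLC3A1 forms a transporter here was not tested. CTNS (cystinosin), which exports cystine from lysosomes, had a log2 fold change of 0.45 (adjusted p = 4.4e-07), and SLC1A1, a carrier of glutamate and cysteine, one of 0.49 (adjusted p = 0.020), both under the fold change minimum. MFSD12, a cysteine importer of lysosomes, was called higher with a log2 fold change of 0.52, close to the minimum. Of its exon bases, 23.9% are shared with genes on the opposite strand, so this value may not describe MFSD12 alone.

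**Figure D5:**
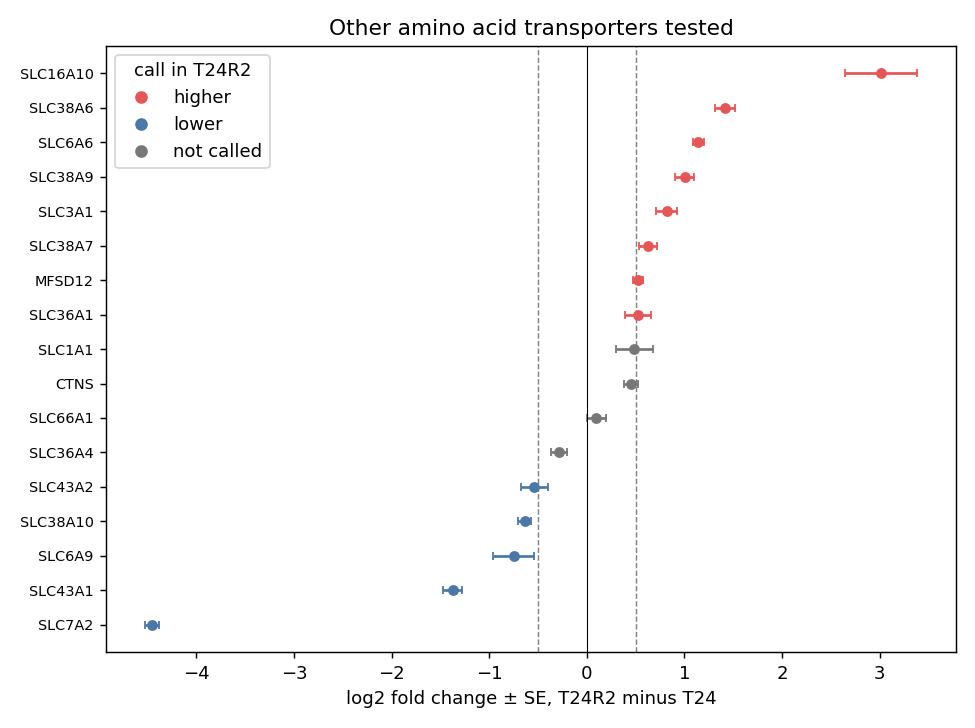
Log2 fold change ± SE, T24R2 minus T24, of 17 of the 18 tested amino acid transporters outside the 10 members, coloured by call; dashed lines mark 0.5 and -0.5. SLC7A2 at -4.45 and SLC16A10 at 3.01 lie at the ends, and SLC6A17 is left out because its T24 libraries were at the floor.

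Genes of cysteine and glutathione handling, not all of them enzymes that use or make cysteine, were read from the same fit. Of 12 genes, 9 were tested, with 5 higher, 1 lower and 3 not called (66.7% called against 51.4% of all genes tested, median log2 fold change 0.76 against 0.01). GCLM and GCLC, the subunits of glutamate-cysteine ligase, which starts glutathione synthesis, rose with log2 fold changes of 1.96 (26.7 to 104 CPM, adjusted p = 1.2e-27 by edgeR) and 1.86 (15.6 to 56.6 CPM, adjusted p = 3.6e-23). CTH and CBS, the transsulfuration enzymes that make cysteine inside the cell, rose with 1.85 (adjusted p = 1.2e-16) and 1.31 (adjusted p = 3.5e-11). GSS, the glutathione synthetase of the next step, fell with -0.87, from 134 ± 6.90 to 73.1 ± 4.15 CPM.

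Of 15 regulators known to act on these transporters, all 15 were tested, with 5 higher, 1 lower and 9 not called (40.0% called against 51.4% of all genes tested, median log2 fold change 0.12 against 0.01). NFE2L2 rose from 98.9 ± 2.33 to 280 ± 23.3 CPM (log2 fold change 1.50, adjusted p = 2.3e-26 by edgeR). BACH1, a repressor that competes with NRF2 at antioxidant elements, fell from 202 ± 7.09 to 98.3 ± 6.06 CPM (log2 fold change -1.04, adjusted p = 1.2e-21). KEAP1, on the same list, was called higher, from 56.2 ± 3.96 to 93.2 ± 7.45 CPM (log2 fold change 0.73, adjusted p = 7.4e-14 by edgeR). The activity of NRF2 was not tested. CEBPB, a partner of ATF4, was called higher with 0.79, and 12.6% of its exon bases are shared with its antisense gene. ATF4 itself had a log2 fold change of -0.43 (adjusted p = 3.4e-11), under the minimum, from 533 ± 27.8 to 397 ± 20.3 CPM. ATF4 is controlled in large part at translation, which these counts do not measure.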

How the data were processed

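Total RNA of T24 and T24R2 was sequenced in 5 libraries per line. Reads were aligned by the authors to hg38 (STAR 2.7.0), reduced to unique alignments and deduplicated (samtools 1.10), and fragments were assigned to GENCODE release 39 genes by featureCounts 2.0.1 under strand option 1; the deposited values are raw counts. Groups and replicate numbers follow the sample labels. Genes passing filterByExpr were tested in R 4.3.3 with edgeR 4.0.16 (TMM, glmQLFit, glmQLFTest, Benjamini-Hochberg over 16181 genes). Exact two-sided permutation tests over libraries, ratios and motif searches used Python 3.11.15 with SciPy 1.17.1, numpy 2.4.6 and pandas 2.3.3. In simulated counts 198 of 200 changed genes and 0 unchanged genes were called. The simulation changed only 200 of 16181 genes, balanced up and down, with the same spread between libraries for every gene. In the data 51.4% of the genes tested were called, so the simulation does not give the error rate of these calls. Alternatives used DESeq2 1.42.0 and limma 3.58.1, other normalizations, filters and thresholds, and each library left out.

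The members and gene lists were chosen with earlier results of these data known. Named genes are all 10 members, the called list genes with the largest absolute log2 fold change at a mean of at least 1 CPM (8 transporters, 4 of each other list), genes overlapping members, the 5 genes with the pattern nearest to SLC7A11, and SLC1A1, CTNS, ATF4 and NFE2L2. SLC38A7, SLC38A10, SLC7A9, MFSD12, GSS, KEAP1, SLC7A5P1, SLC7A5P2, PREPL, NPRL3, MPG and the marker genes were named after their values were seen. MeRIP-seq data were not used here. Figures used matplotlib 3.10.9. The floor was set at 3 counts: a gene not exceeding it in any library of one line has only a bound for its fold change. Some results that the naming rule covers are not reported here.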

Additional observations from a re-analysis of the deposited data

How the results depend on the processing

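Depth limits SLC1A3, which was testable only without the count filter (log2 fold change 2.17). With a minimum absolute log2 fold change of 1, the calls went from 8309 to 4211 for all genes, from 4 to 1 for the 10 members (SLC7A11), from 14 to 7 for the other amino acid transporters, from 6 to 4 for the cysteine and glutathione list (without the fall of GSS), from 6 to 2 for the regulators and from 11 to 6 for the mTORC1 list. With a mean of at least 100 counts, which leaves fewer genes to test, 4991 of all genes and 9 other amino acid transporters were called. Without TMM scaling the median over all genes tested moved on the log2 scale from 0.01 to 0.18 and the share of calls that were higher from 48.5% to 60.3% (5206 higher and 3431 lower), and the mTORC1 list had 13 higher and 2 lower. The log2 fold change of SLC38A2 then turned to 0.052, and its mean lay above that of T24 by 3.65% (p = 0.230, exact permutation test) and in TPM by 8.03% (p = 0.0317). SLC7A1 rose by 16.1% without scaling and by 21.1% in TPM (both p = 0.00794, exact permutation test). With the replicate number as a block, edgeR called 8240 genes and 4 members. The light to heavy chain log2 differences of 2.08, -0.25 and -0.84 and the rise of 14.3 percentage points in the SLC7A11 share gave p = 0.0625 each in the exact sign-flip test of the block, the smallest p that test can give. Libraries of the same replicate number did not deviate together (correlations -0.0210 to 0.0155). For 1 of the 5 numbers, the T24 library correlated best, among the T24R2 libraries, with that of its own number.

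Leaving out each library in turn gave 8398 to 8466 genes called, 4 members and 12 to 15 other amino acid transporters. It also gave 6 genes of the cysteine and glutathione list, 6 regulators and 10 to 12 mTORC1 genes. The log2 fold changes then ran from 3.00 to 3.10 for SLC7A11 and from 0.96 to 1.01 for SLC3A2. The ratio differences ran from 2.01 to 2.13, from -0.28 to -0.23 and from -0.87 to -0.80 for SLC7A11, SLC7A5 and SLC7A6, and the SLC7A11 share from 13.9 to 14.6 points. Of 184 log2 fold changes of members over the alternatives, 183 kept their direction, the exception being SLC38A2 without scaling. With the fold change minimum left unchanged, no tested member changed between called and not called. With the minimum raised to 1, SLC3A2, SLC1A4 and SLC7A5 lost their calls and SLC7A11 kept its call. By adjusted p alone, SLC7A6 missed 0.05 without T24 library 1, T24 library 2 or T24R2 library 4. SLC7A1 passed it without scaling (0.000108) and with upper-quartile normalization (0.0165), and SLC38A2 missed it without scaling (0.251), with upper-quartile normalization (0.412) and at a mean of at least 100 counts (0.0691). The cause of the changes with scaling was not tested.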

Other observations

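Amino acids taken up by these carriers are sensed at the lysosome by the mTORC1 pathway, and the genes of that pathway gave values not shown above. Of 20 genes, 19 were tested, with 9 called higher, 2 lower and 8 not called, so 57.9% were called against 51.4% of all genes tested, and the median log2 fold change was 0.45 against 0.01 for all genes. RRAGD and RRAGB, Rag GTPases that bring mTORC1 to the lysosome, rose from 0.729 ± 0.429 to 19.5 ± 1.34 CPM (log2 fold change 4.71, adjusted p = 7.7e-23 by edgeR) and from 5.50 ± 1.01 to 22.9 ± 2.62 CPM (log2 fold change 2.05). SESN2, a leucine sensor, rose from 7.27 ± 1.69 to 23.9 ± 2.84 CPM (log2 fold change 1.72), and LAMTOR3, a Ragulator subunit, from 18.6 ± 2.86 to 45.9 ± 3.01 CPM (log2 fold change 1.30). NPRL3, a subunit of the GATOR1 inhibitor, fell with a log2 fold change of -0.95, and 14.1% of its exon bases are shared with 2 genes on the opposite strand. Of these, MPG went from a mean of 1099 counts in T24 to 470 in T24R2, against 994 and 601 for NPRL3. Reads in the shared bases cannot be told apart, so this fall may not describe NPRL3 alone.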
